A study of Homo sapiens with 4 samples.

Results

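The genes described here are those of the chaperones of the endoplasmic reticulum and of the unfolded protein response. They were taken by symbol from a list of 45 symbols, which held 42 distinct genes because 3 were entered under an older symbol as well. All 42 were found once each in a table of 39635 genes. Of these, 6 encode sensors and transcription factors, 13 chaperones and their cofactors, 11 disulfide enzymes, 10 proteins of degradation and 2 proteins of translocation. The table gives raw read counts of polyadenylated RNA from BEAS-2B cells, an established line from human bronchial epithelium, kept in the defined medium N2B27. The labels give a short hairpin RNA against Fer for 2 of the libraries, called knockdown-labelled below, and a control hairpin for the other 2. They do not state separate cultures or clones, so every p-value covers the spread among these 4 libraries alone, and part or all of that spread may be technical.

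Secreted and membrane proteins enter the endoplasmic reticulum through the SEC61 channel and fold there with the help of HSPA5 (also called BiP), HSP90B1, the lectins calreticulin and calnexin, and disulfide isomerases. When unfolded proteins accumulate, the membrane sensors ERN1 (IRE1), EIF2AK3 (PERK) and ATF6 raise the transcription of chaperones, lower general translation and increase the removal of misfolded proteins by the proteasome. Airway epithelial cells secrete and glycosylate many proteins, so this machinery is expressed in them without added stress.

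FER mRNA, which the hairpin targets, showed no drop that the test could detect. It had 17.8 and 20.1 CPM (counts scaled to a common library size) in the knockdown-labelled libraries and 16.3 and 21.2 CPM in control, which differ by 0.02 ± 0.17 on the log2 scale (SE, 95% interval -0.37 to 0.40, adjusted p = 0.976 in edgeR's quasi-likelihood test). Fold changes below are of the knockdown-labelled libraries over control, and CPM are scaled by TMM factors, edgeR's correction for differences in composition. Library totals ran from 21422976 to 25169713 counts. Transcripts of the mitochondrial genome took 9.62% and 9.37% of the counts of the knockdown-labelled libraries, against 16.9% and 19.4% in control. Of 8 epithelial markers, KRT8 and KRT18 were abundant, 6 were high enough to test, and the basal markers KRT5 and TP63 were at 0.138 to 0.528 CPM. KRT19, CDH1 and EPCAM were low, with means of 7.32, 10.1 and 4.22 CPM in the knockdown-labelled libraries. In control their means were 6.53, 7.43 and 3.08 CPM. KRT7 was at -0.40 (adjusted p = 0.169) and CDH1 at 0.45 (adjusted p = 0.239). The summed level of 6 mesenchymal markers was 3322 and 3184 CPM in the knockdown-labelled libraries and 4091 and 4810 CPM in control. THY1 was at -0.77 (adjusted p = 0.0302) and COL1A2 at 0 or near it in each library. FN1 and VIM were abundant, with means of 1952 and 900 CPM in the knockdown-labelled libraries and 2469 and 1355 CPM in control. The groups overlapped for FN1, at 2003.7 and 1900.9 CPM in the knockdown-labelled libraries and 2002.5 and 2935.7 CPM in control. The 8 epithelial markers summed to 2861 and 2828 CPM in the knockdown-labelled libraries and 3385 and 2659 CPM in control. Of 5 blood and endothelial markers, 4 were in the table, HBB was at 0 in every library, and they summed to 0.704 and 1.54 CPM in the knockdown-labelled libraries and 1.71 and 1.94 CPM in control. The part of these differences in the results below was not tested, apart from a fit without the mitochondrial genes.

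The promoters of these genes are known for the ER stress response element (ERSE), which pairs a site for the factor NF-Y with a site for ATF6 and XBP1, and for the shorter ERSE-II. Promoters from RefSeq (GRCh38.p14) were matched by symbol for 39 of the 42 genes and searched on both strands, from 250 bases before to 50 bases after the annotated start. CCAAT and CCACG with 9 bases of any kind between them (ERSE) were in 7 of the 39 promoters, or 17.9%, and in 22 of 27305 promoters of all genes, or 0.0806%. ATTGG and CCACG with 1 base of any kind between them (ERSE-II) were in 3 of the 39, or 7.69%, and in 15 of the 27305, or 0.0549%. Of the 10 promoters with either element, 6 belong to chaperones and their cofactors, 2 to disulfide enzymes, 1 to the factor XBP1 and 1 to the degradation gene HERPUD1. The short motifs are common alone, since CCAAT was in 30 of the 39 and in 35.7% of all promoters, and CCACG in 26 of the 39 and in 37.9% of all. Every match of either element also counts as a match of both, since ATTGG is CCAAT on the other strand. A separate motif, TGACGTG, which XBP1 binds, was in 3 of the 39 and in 2.00% of all promoters, and in HYOU1 it overlaps an ERSE-II. Only exact matches were counted, so a promoter without one may still hold an element with a changed base. The matches are descriptions of the sequence and not measured binding sites.

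The 8 ERSE matches are shown because they are the element that the classical chaperone promoters share. Each reads 5′ to 3′ in the direction of the element, with its 2 defining motifs in capitals, its place on GRCh38.p14 and its bases counted from the gene start.
CALR (chr19:12938384-12938402, bases -225 to -207): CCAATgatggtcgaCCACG
HSP90B1 (chr12:103930216-103930234, bases -194 to -176): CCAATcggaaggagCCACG
HSP90B1 (chr12:103930321-103930339, bases -89 to -71): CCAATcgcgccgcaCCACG
HSPA5 (chr9:125241391-125241409, bases -66 to -48): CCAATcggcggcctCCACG
CANX (chr5:179698778-179698796, bases -151 to -133): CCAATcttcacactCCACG
CRELD2 (chr22:49918554-49918572, bases -80 to -62): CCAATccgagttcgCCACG
ERO1B (chr1:236282183-236282201, bases -243 to -225): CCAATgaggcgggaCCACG
XBP1 (chr22:28800603-28800621, bases -52 to -34): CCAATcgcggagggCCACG

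The 4 ERSE-II matches are shown for SDF2L1, which passed the test described below, and for the 2 other genes that hold one.
SDF2L1 (chr22:21642114-21642124, bases -188 to -178): ATTGGtCCACG
HYOU1 (chr11:119057380-119057390, bases -185 to -175): ATTGGaCCACG
HYOU1 (chr11:119057274-119057284, bases -79 to -69): ATTGGaCCACG
HERPUD1 (chr16:56932025-56932035, bases -117 to -107): ATTGGgCCACG

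The 250 bases before the start are given for SDF2L1 and TXNDC12, the 2 genes that passed the test, and for HSPA5 and HSP90B1, the main lumenal chaperones. They read 5′ to 3′ on the gene's strand, with each ERSE or ERSE-II match in capitals.
SDF2L1 (chr22:21642052-21642301, plus strand): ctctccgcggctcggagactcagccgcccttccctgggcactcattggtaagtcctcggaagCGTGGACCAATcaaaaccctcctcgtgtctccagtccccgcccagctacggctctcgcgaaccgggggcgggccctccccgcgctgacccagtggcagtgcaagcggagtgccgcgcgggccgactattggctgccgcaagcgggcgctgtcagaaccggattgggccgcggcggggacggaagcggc
HSPA5 (chr9:125241344-125241593, minus strand): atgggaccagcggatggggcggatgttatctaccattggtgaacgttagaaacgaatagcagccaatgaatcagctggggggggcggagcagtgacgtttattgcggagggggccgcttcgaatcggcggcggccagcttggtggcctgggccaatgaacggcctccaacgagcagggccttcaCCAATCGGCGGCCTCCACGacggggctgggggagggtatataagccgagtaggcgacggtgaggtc
HSP90B1 (chr12:103930160-103930409, plus strand): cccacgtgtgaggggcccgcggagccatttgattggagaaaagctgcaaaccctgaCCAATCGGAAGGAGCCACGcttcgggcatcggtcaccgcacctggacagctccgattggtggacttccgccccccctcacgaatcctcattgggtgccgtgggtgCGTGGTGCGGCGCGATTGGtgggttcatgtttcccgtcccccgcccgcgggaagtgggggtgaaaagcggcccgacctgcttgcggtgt
TXNDC12 (chr1:52056172-52056421, minus strand): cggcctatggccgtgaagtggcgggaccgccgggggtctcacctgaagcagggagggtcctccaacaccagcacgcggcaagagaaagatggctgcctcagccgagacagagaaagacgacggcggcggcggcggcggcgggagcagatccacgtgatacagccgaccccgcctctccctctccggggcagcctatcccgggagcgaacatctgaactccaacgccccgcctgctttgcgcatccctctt

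The TXNDC12 promoter holds neither element, and SDF2L1 holds 1 ERSE-II on the strand opposite to the gene.

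**Figure D1:**
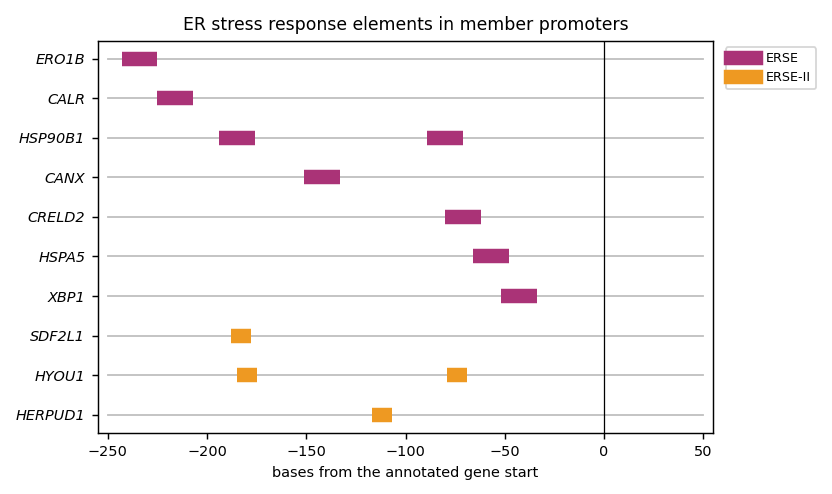
Position of ERSE (purple) and ERSE-II (orange) matches in the 10 member promoters that hold one. The x axis gives bases from the annotated gene start and each row is 1 gene. HSP90B1 holds 2 ERSE matches and HYOU1 holds 2 ERSE-II matches.

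Across the 41 genes high enough to test, 2 were higher in the knockdown-labelled libraries at an adjusted p under 0.05 and 0 were lower. SDF2L1, a partner of the chaperone HSPA5, rose 2.07-fold and TXNDC12, a small thioredoxin-like enzyme, rose 2.66-fold. DESeq2 called 3 members higher and 0 lower, and limma-voom 2 higher and 0 lower. Over all genes that each tested, DESeq2 called 2.44% and limma-voom 1.16% in either direction, against 0.646% in edgeR. The member without a test was ATF6B, whose counts were too low. Over all 15336 tested genes, 43 were higher, which is 0.280%, and 56 were lower, which is 0.365%. Scaling by library totals alone gave 396 higher and 47 lower over all genes, and 3 higher and 0 lower among the members. The members were listed with these results known, so the count of 2 is not independent evidence about the list. At an unadjusted p under 0.05 the members had 5 higher and 4 lower, where all genes had 8.95% higher and 8.77% lower. The median log2 fold change of the 41 members was -0.0070, against 0.01 over all tested genes, and 18 members lay above 0. With library totals alone 30 members lay above 0, and the median of all genes was 0.18. Both knockdown-labelled libraries lay above both controls for 11 members (25.8% of all tested genes did so) and below both for 12 (23.4% of all tested genes). These shares are close to the background.

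The 4 roles with more than 2 genes had medians near 0. The median log2 fold change was -0.05 for 5 tested sensors and transcription factors, 0.08 for 13 chaperones and cofactors, -0.04 for 11 disulfide enzymes and 0.02 for 10 degradation genes. The 2 translocation genes were at 0.69 and -0.19. The 10 tested members with an ERSE or ERSE-II had a median of -0.0044, with 4 above 0, and the 28 tested members whose promoter held neither had a median of -0.01, with 13 above 0. In bulk RNA, a change in the share of cells and a change in RNA per cell cannot be told apart.

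**Figure D2:**
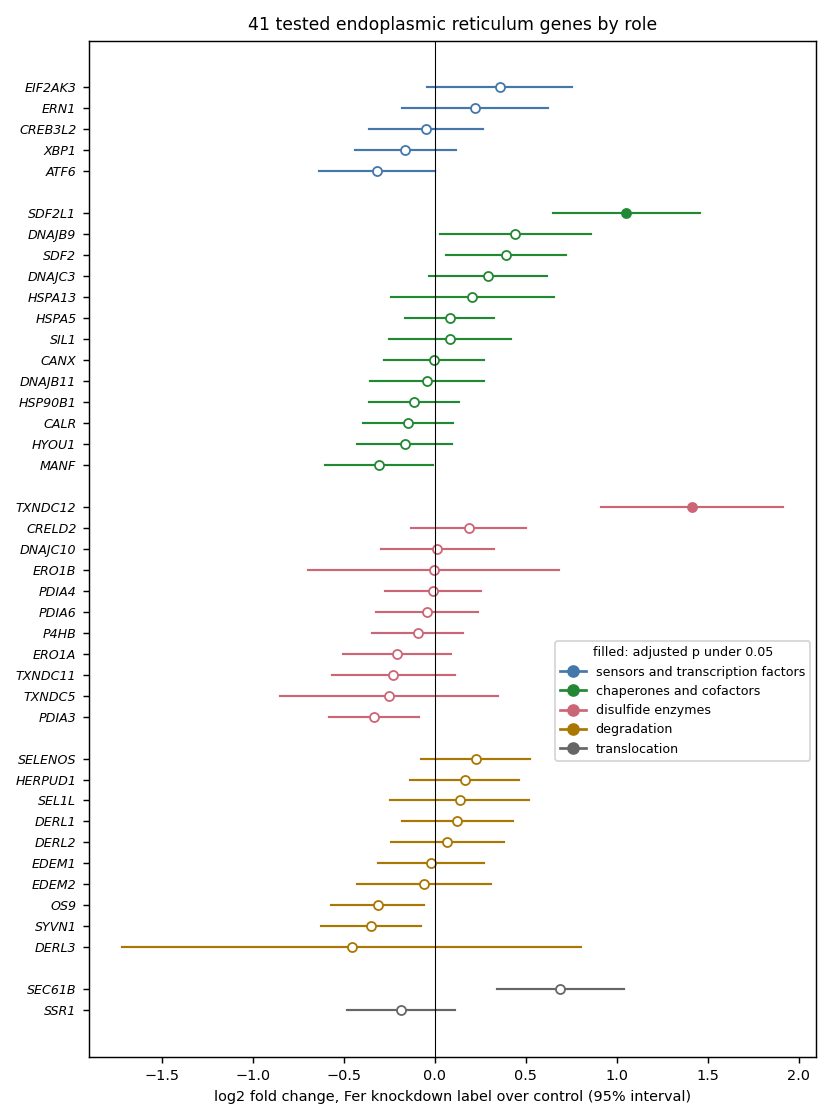
Log2 fold change of the knockdown-labelled libraries over control for the 41 tested genes, by role. Points are estimates from edgeR and lines are 95% intervals. The 2 filled points, SDF2L1 at 1.05 and TXNDC12 at 1.41, passed an adjusted p of 0.05 and the others lie on both sides of 0.

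Of the raw library totals, the 42 genes held 0.713% and 0.724% of the counts of the knockdown-labelled libraries. They held 0.685% and 0.672% of the counts in control, with a 95% Wilson interval of 0.669% to 0.676% for the lowest library. On the TMM scale the direction was the opposite, with summed levels of 6725 and 6858 CPM in the knockdown-labelled libraries and 7293 and 7087 CPM in control. The mitochondrial share, which enters the raw totals, was lower in the same libraries. Chaperones and cofactors made up 53.5% and 54.1% of the members' counts in the knockdown-labelled libraries, and 52.7% and 53.8% in control. Disulfide enzymes made up 30.1% and 29.5% in the knockdown-labelled libraries, and 31.0% and 29.6% in control, so the 2 groups overlapped for both roles. Sensors and transcription factors also overlapped, at 3.35% and 3.23% in the knockdown-labelled libraries and 3.13% and 3.55% in control. For the remaining 2 roles the groups did not overlap, in opposite directions and with no test. Degradation genes made up 10.5% and 10.6% in the knockdown-labelled libraries, and 11.1% and 10.9% in control. Translocation genes made up 2.51% and 2.59% in the knockdown-labelled libraries, and 2.10% and 2.28% in control. Such shares follow the abundant genes of a role. Of the 2 translocation genes SEC61B was higher and SSR1 lower, and of the 10 degradation genes 5 lay above 0 and 5 below. OS9, the most abundant degradation gene, had means of 291 CPM in the knockdown-labelled libraries and 362 CPM in control.

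Among the sensors and transcription factors, 0 of the 5 tested genes passed, also at an unadjusted p under 0.05 and in DESeq2 and limma-voom. ATF6, the sensor that is cut in the Golgi to release a transcription factor, had 48.0 and 39.9 CPM in the knockdown-labelled libraries and 53.1 and 56.5 CPM in control. Both values in the knockdown-labelled libraries lay below both controls, with ATF6 at -0.32 ± 0.14 on the log2 scale (adjusted p = 0.283). EIF2AK3, the kinase PERK that phosphorylates the translation factor eIF2 alpha, had 12.6 and 11.9 CPM in the knockdown-labelled libraries and 8.71 and 10.4 CPM in control. Its groups did not overlap either, with the knockdown-labelled libraries above control, at 0.36 ± 0.18 (adjusted p = 0.333).

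ERN1, the kinase and endonuclease IRE1 that splices XBP1 mRNA, had 15.0 and 17.2 CPM in the knockdown-labelled libraries and 12.1 and 15.5 CPM in control. The groups overlapped, at 0.22 ± 0.18 (adjusted p = 0.571). XBP1, the transcription factor made from that spliced mRNA, had 69.4 and 70.7 CPM in the knockdown-labelled libraries and 79.8 and 77.0 CPM in control. Its log2 fold change was -0.16 ± 0.12 (adjusted p = 0.544), with the knockdown-labelled libraries below both controls. Counts per gene do not separate spliced from unspliced XBP1. CREB3L2, a membrane-bound relative of ATF6, was at -0.05 (adjusted p = 0.901). ATF6B, the paralog of ATF6, had 19 and 3 counts in the knockdown-labelled libraries and 3 and 4 counts in control, which was too low to test.

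Among the chaperones and their cofactors, 1 of 13 rose and 0 fell. SDF2L1 (chromosome 22), which forms a complex with HSPA5 and the co-chaperone DNAJB11, had 45.0 and 50.6 CPM in the knockdown-labelled libraries and 27.2 and 19.0 CPM in control. Both knockdown-labelled libraries were well above both controls, although control replicate 2 was at -0.52 against control replicate 1 on the log2 scale. The log2 fold change was 1.05 ± 0.18 (SE, 95% interval 0.65 to 1.46, adjusted p = 0.0378), and no exon of another gene overlaps SDF2L1. The call was lost at 0.96 with knockdown-labelled replicate 2 left out (adjusted p = 0.125), where the alternatives ranged from 3.03e-27 to 0.125.

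SDF2, the paralog of SDF2L1 that is known as the less stress-responsive of the pair, had 51.5 and 52.9 CPM in the knockdown-labelled libraries and 44.2 and 35.4 CPM in control. The groups did not overlap, at 0.39 ± 0.15 (adjusted p = 0.211), and the call was not reached. DNAJB9, a co-chaperone that holds HSPA5 on the sensor ERN1, had 13.5 and 18.1 CPM in the knockdown-labelled libraries and 11.8 and 11.5 CPM in control. Here the spread was among the knockdown-labelled libraries, and the log2 fold change was 0.44 ± 0.19 (adjusted p = 0.253). DNAJB9 was at 0.64 with knockdown-labelled replicate 1 left out and at 0.21 with replicate 2 left out. MANF, a stress-inducible protein of the lumen that can be secreted, had 90.9 and 94.4 CPM in the knockdown-labelled libraries and 124 and 105 CPM in control. It lay lower without overlap, at -0.31 ± 0.13 (adjusted p = 0.271).

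The 2 main lumenal chaperones were close to their control levels. HSPA5, whose induction is the usual marker of the response, had 538 and 534 CPM in the knockdown-labelled libraries and 494 and 518 CPM in control. Its log2 fold change was 0.08 ± 0.11 (95% interval -0.16 to 0.33, adjusted p = 0.747). HSP90B1, also called GRP94, had 570 and 547 CPM in the knockdown-labelled libraries and 587 and 620 CPM in control, at -0.11 ± 0.11 (95% interval -0.36 to 0.13, adjusted p = 0.645). The groups did not overlap for either gene, and both intervals lie within 0.5 of 0. The 7 other chaperones and cofactors ranged from -0.17 for HYOU1, a nucleotide exchange factor of HSPA5, to 0.29 for DNAJC3, a co-chaperone known to inhibit PERK, and 0 passed.

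**Figure D3:**
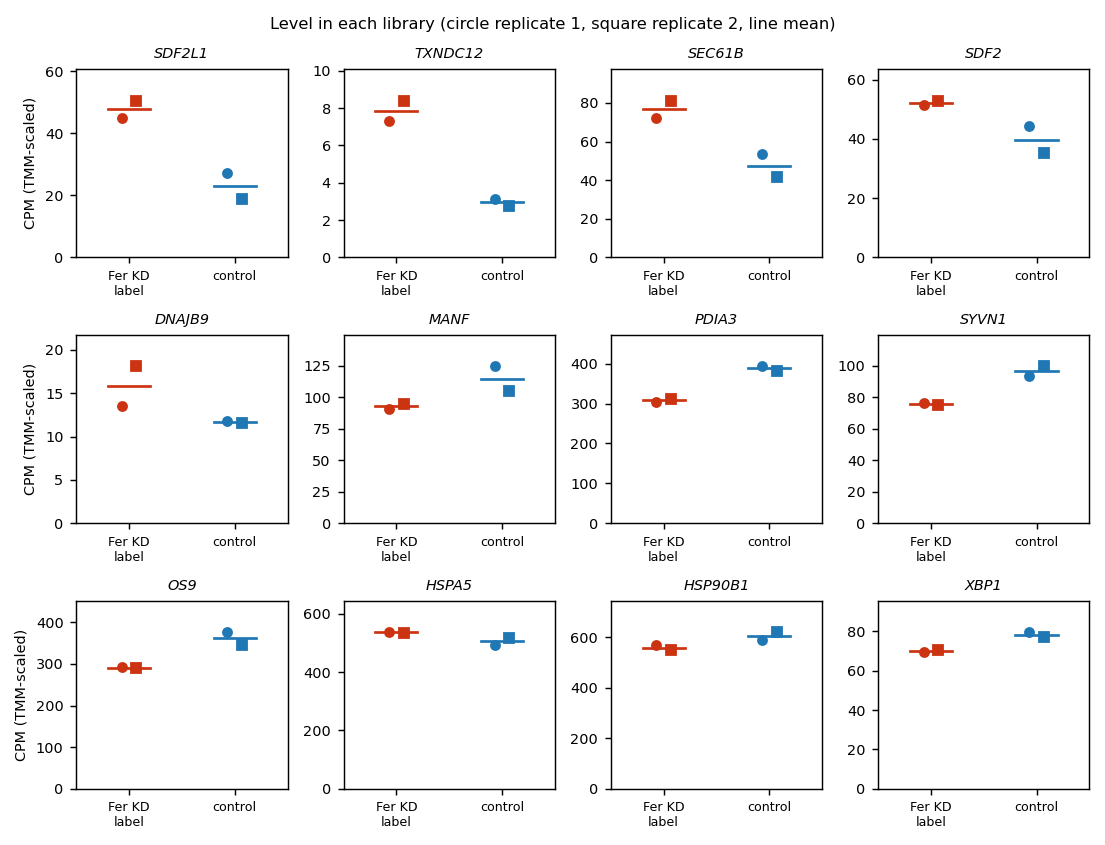
Level of 12 genes in each library, in TMM-scaled CPM on axes that start at 0, with the knockdown-labelled libraries on the left and control on the right. Circles are replicate 1, squares are replicate 2 and lines are means of 2 libraries. SDF2L1, TXNDC12 and SEC61B are higher in both knockdown-labelled libraries, and HSPA5, HSP90B1 and XBP1 differ little.

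Among the disulfide enzymes, 1 of 11 rose and 0 fell. TXNDC12 (chromosome 1), also called ERp18, had 7.31 and 8.40 CPM in the knockdown-labelled libraries and 3.13 and 2.77 CPM in control. The groups were far apart relative to the spread within them, at a log2 fold change of 1.41 ± 0.22 (SE, 95% interval 0.91 to 1.91, adjusted p = 0.0302). Its level rests on 166 and 223 counts in the knockdown-labelled libraries and 64 and 60 counts in control. In GENCODE release 29, 49.7% of its exonic bases are shared with other genes, so its counts are uncertain. That release gives it 3844 exonic bases, against a deposited length of 2864, so the share may differ in the gene model that was counted. The partner with the most shared bases, 1389 of 1911, is the protein-coding gene AL445685.3 on the same strand, for which no values were had here. KTI12, on the same strand with 532 shared bases, was at 0.27 (adjusted p = 0.595), and BTF3L4, on the opposite strand with 47, was at -0.25 (adjusted p = 0.359). With knockdown-labelled replicate 2 left out, TXNDC12 missed the threshold at 1.31 (adjusted p = 0.0501), where the alternatives ranged from 4.63e-07 to 0.0501.

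PDIA3, the isomerase that works with calreticulin and calnexin on glycoproteins, had 305 and 311 CPM in the knockdown-labelled libraries and 394 and 383 CPM in control. The groups did not overlap and the replicates lay close, at -0.33 ± 0.11 (adjusted p = 0.168), and other genes cover 18.9% of its exons. ERO1A, the oxidase that recharges the isomerases, had 34.1 and 34.0 CPM in the knockdown-labelled libraries and 38.8 and 39.8 CPM in control, at -0.21 ± 0.13 (adjusted p = 0.461). TXNDC11, a thioredoxin-domain protein, had 23.3 and 22.6 CPM in the knockdown-labelled libraries and 29.0 and 24.7 CPM in control, at -0.23 ± 0.15 (adjusted p = 0.477). In all 3 the knockdown-labelled libraries lay below both controls, and none passed. The abundant isomerases P4HB, PDIA4 and PDIA6 were at -0.09, -0.0070 and -0.04, and their groups overlapped. CRELD2, a stress-inducible protein with an ERSE, was at 0.19 (adjusted p = 0.544). TXNDC5 shares 60.6% of its exonic bases with a read-through gene and was at -0.25 (adjusted p = 0.678).

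Among the degradation genes, 0 of 10 passed, as in DESeq2 and limma-voom, and the 2 with an unadjusted p under 0.05 were lower. SYVN1, the ubiquitin ligase HRD1 at the core of the retrotranslocation complex, had 76.6 and 75.2 CPM in the knockdown-labelled libraries and 93.8 and 99.8 CPM in control. It was at -0.35 ± 0.12 (adjusted p = 0.184), without overlap of the groups, and 10.1% of its exonic bases are shared with FAU, MRPL49 and a miRNA. OS9, a lectin that delivers misfolded glycoproteins to that complex, had 293 and 290 CPM in the knockdown-labelled libraries and 377 and 347 CPM in control. It was at -0.31 ± 0.11 (adjusted p = 0.195), also without overlap, and 13.5% of its exonic bases are shared with an antisense gene.

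SELENOS and HERPUD1 lay on the other side of 0 from SYVN1 and OS9, and neither passed. Of the 10 genes of this role, 5 lay above 0 and 5 below. SELENOS, a selenoprotein that recruits the VCP ATPase, had 47.6 and 47.9 CPM in the knockdown-labelled libraries and 42.9 and 38.8 CPM in control, at 0.23 ± 0.13 (adjusted p = 0.421). HERPUD1, a membrane partner of SYVN1 with an ERSE-II in its promoter, had 48.0 and 53.9 CPM in the knockdown-labelled libraries and 45.2 and 45.6 CPM in control, at 0.17 ± 0.13 (adjusted p = 0.57). The groups did not overlap for either gene. SEL1L, the adaptor of SYVN1, was at 0.14, and the derlins DERL1 and DERL2 were at 0.12 and 0.07. EDEM1 and EDEM2, which are known to trim mannose from misfolded glycoproteins, were at -0.02 and -0.06. DERL3 had 10 and 12 counts in the knockdown-labelled libraries and 9 and 17 counts in control, and 77.0% of its exonic bases overlap SMARCB1, so its value of -0.46 ± 0.57 is uncertain.

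Of the 2 translocation genes, SEC61B was the member closest to the threshold without passing it. SEC61B, the small beta subunit of the SEC61 channel, had 72.3 and 81.2 CPM in the knockdown-labelled libraries and 53.8 and 41.4 CPM in control. Both knockdown-labelled libraries lay above both controls, at a log2 fold change of 0.69 ± 0.16 (95% interval 0.34 to 1.04, adjusted p = 0.0746). Of the alternatives with all 4 libraries, DESeq2 (adjusted p = 0.00706), library totals alone (0.0322), the replicate block, no filter and the length trend put it past the threshold. These settings also called more of all genes, 2.44% to 6.46% against 0.646% in the main fit. Over all 14 alternatives its log2 fold change ran from 0.49 to 0.89. SSR1, the alpha subunit of the translocon-associated complex, had 96.6 and 96.5 CPM in the knockdown-labelled libraries and 99.7 and 120 CPM in control. Its groups did not overlap, at -0.19 ± 0.13 (adjusted p = 0.517), so the 2 genes lay on opposite sides of 0.

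SDF2L1 and SEC61B have the shortest deposited gene lengths among the 42 members, 1059 and 1209 bases. Over all tested genes the median log2 fold change was 0.16 for 728 genes of up to 1000 bases, 0.09 for 580 genes of 1000 to 1500 bases and -0.02 for 3252 genes of more than 8000 bases. Spearman's rho between length and log2 fold change was -0.191 across the 41 tested members and -0.0789 across all 15336 tested genes, as descriptions across genes of the same 4 libraries. With a trend on length removed from each library, SDF2L1 was at 0.95 (adjusted p = 0.00371), TXNDC12 at 1.39 (adjusted p = 0.00666) and SEC61B at 0.60 (adjusted p = 0.0181). That correction was chosen after seeing the data, and over all genes it made 687 calls in place of 99. With the mitochondrial genes left out, SDF2L1 was at 1.04 (adjusted p = 0.0432) and TXNDC12 at 1.40 (adjusted p = 0.0394).

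Levels of the members spanned several orders of magnitude, and their order was much the same in both groups. Per kilobase of deposited gene length, CALR, which encodes the calcium-binding lectin calreticulin, was the highest, at a mean of 548 CPM per kb in the knockdown-labelled libraries and 607 CPM per kb in control. P4HB followed at 203 CPM per kb in the knockdown-labelled libraries and 216 CPM per kb in control. These are the most abundant lectin and the most abundant isomerase of the list. HSPA5 came next, at 137 CPM per kb in the knockdown-labelled libraries and 129 CPM per kb in control. HSP90B1 followed it at 119 CPM per kb in the knockdown-labelled libraries and 129 CPM per kb in control. In control the means of HSPA5 and HSP90B1 nearly coincided.

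The sensors ATF6, EIF2AK3 and ERN1 stood much lower on that scale than the abundant chaperones CALR, HSPA5 and HSP90B1. EIF2AK3 and ERN1 were below every chaperone of the list in both groups, but ATF6 was not. HSPA13 had 4.62 CPM per kb in the knockdown-labelled libraries and 4.01 CPM per kb in control, below ATF6 in both groups. ATF6 had a mean of 5.59 CPM per kb in the knockdown-labelled libraries and 6.97 CPM per kb in control. EIF2AK3 had 2.24 CPM per kb in the knockdown-labelled libraries and 1.74 CPM per kb in control, and ERN1 had 1.48 CPM per kb in the knockdown-labelled libraries and 1.27 CPM per kb in control. The factor XBP1 was higher, at 23.1 CPM per kb in the knockdown-labelled libraries and 25.9 CPM per kb in control. SDF2L1 ranked 10 of 42 in the knockdown-labelled libraries and 15 in control, and TXNDC12 ranked 35 in the knockdown-labelled libraries and 39 in control. DERL3 and ATF6B were the lowest pair in both groups. These levels divide by the whole deposited length, although 77.0% of the exonic bases of DERL3 and 49.7% of those of TXNDC12 are shared with other genes. The effect of shared bases on the ranks was not tested.

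**Figure D4:**
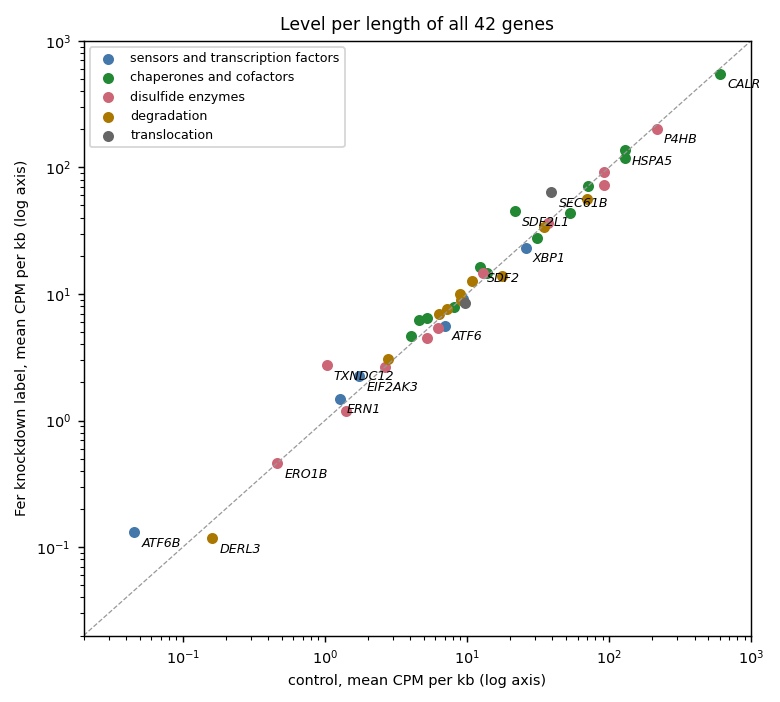
Mean level of all 42 genes per kilobase of deposited gene length, with the knockdown-labelled libraries on the y axis and control on the x axis, both logarithmic. The dashed line marks equal levels and colours mark roles. SDF2L1, SEC61B and TXNDC12 lie above the line, and CALR, P4HB and HSPA5 are the highest.

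At these genes, as over all tested genes, the pair of controls was further apart than the pair of knockdown-labelled libraries. Over all tested genes the median absolute log2 difference was 0.111 between the knockdown-labelled libraries and 0.241 between the controls. The median absolute log2 difference over the 41 members was 0.053 between the knockdown-labelled libraries and 0.194 between the controls, and the median absolute difference between the groups was 0.186. The group difference was larger than both replicate differences for 21 members (51.2%), against 39.5% of all tested genes. EDEM2 differed by -0.48 between control replicate 2 and control replicate 1, with a group difference of -0.06. HSPA13, an HSP70 relative, was 0.59 higher in control replicate 2, with a group difference of 0.21. SDF2L1, SEC61B and SDF2 were at -0.52, -0.38 and -0.32 for control replicate 2 over control replicate 1, so the size of their fold changes depends on which control is used.

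Leaving out a control changed the count of calls most. Without control replicate 1, 15 of 42 members passed (8 higher, 7 lower), where 29.5% of all genes did. Without control replicate 2, 17 of 42 members passed (8 higher, 9 lower), where 20.6% of all genes did. Both sets held SDF2L1, TXNDC12, SEC61B and DNAJB9 as higher and ATF6, PDIA3, OS9 and SYVN1 as lower. With 1 control left, its spread is assumed to be that of the knockdown-labelled libraries. Without replicate 1 of the knockdown-labelled libraries the calls were again SDF2L1 and TXNDC12, and without replicate 2 there were 0, with 56 calls over all genes.

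**Figure D5:**
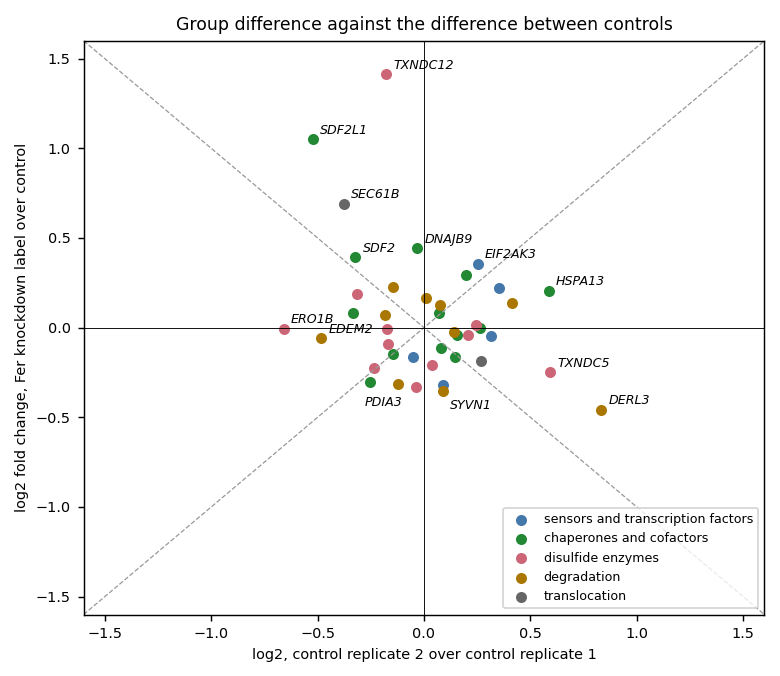
Group difference of each of the 41 tested genes (y axis, log2) against the difference between control replicate 2 and control replicate 1 (x axis, log2). Dashed lines mark equal size, and colours mark roles. TXNDC12, SDF2L1 and SEC61B are among the genes above both dashed lines, as are SDF2 and DNAJB9. EDEM2, ERO1B, HSPA13, TXNDC5 and DERL3 are among those that differ more between the controls than between the groups.

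Other genes of the pathway were taken from 5 lists, of 78 genes in all, of which 76 were tested. Over these lists 0 rose and 1 fell, with a median log2 fold change of 0.0062. At an unadjusted p under 0.05, 8 were higher and 5 lower, where 8.95% and 8.77% of all tested genes were. DESeq2 called 1 higher and 1 lower, and limma-voom 0 higher and 1 lower, where they called 2.44% and 1.16% of all genes. The one that fell was CREB3L1, a membrane-bound transcription factor of the same family as CREB3L2. CREB3L1 had 32.5 and 36.5 CPM in the knockdown-labelled libraries and 59.9 and 61.2 CPM in control, with wide separation of the groups. Its log2 fold change was -0.81 ± 0.14 (adjusted p = 0.0354), and it lost the call, at fold changes of similar size, without knockdown-labelled replicate 1 (-0.73, adjusted p = 0.447) or replicate 2 (-0.90, adjusted p = 0.261). The adjusted p of the alternatives ranged from 1.7e-14 to 0.447. It belongs to a list of 10 factors that process or partner the sensors, whose median was -0.02.

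Of 10 genes of the ATF4 arm downstream of EIF2AK3, 0 passed and 1 was higher at an unadjusted p under 0.05, with a median of 0.02. ASNS, among the 10, had 2 and 12 counts in the knockdown-labelled libraries and 1 and 12 counts in control. Other genes share 44.6% of its exonic bases, so its value is uncertain. ATF3, a stress-induced transcription factor, had 86.7 and 102 CPM in the knockdown-labelled libraries and 47.4 and 72.3 CPM in control, at 0.66 ± 0.19 (adjusted p = 0.124), and was the 1 gene of these lists that DESeq2 called higher. The replicate block, DESeq2 and no filter put ATF3 past the threshold. They also called more of all genes, 2.44% to 6.46% against 0.646% in the main fit. Its size depended on the control used, at 0.38 without control replicate 1 and 0.97 without control replicate 2. ATF4 itself was at -0.18 (adjusted p = 0.505). DDIT3, which encodes the stress factor CHOP and was chosen after its values were seen, was at 0.17 (adjusted p = 0.735), and 39.6% of its exonic bases are shared. Of 16 other translocation genes, 0 passed, 4 were higher and 0 lower at an unadjusted p under 0.05, and 11 were above 0, with a median of 0.16. Over all tested genes 8.95% were higher and 8.77% lower at that p, the median was 0.01 and 51.9% were above 0. SRPRB, a subunit of the signal recognition particle receptor, was at 0.40 (adjusted p = 0.213) and SEC61A2, a channel subunit, was at 0.33 (adjusted p = 0.271).

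Of 20 other tested folding genes, 0 passed, as in DESeq2 and limma-voom, and 1 was higher and 1 lower at an unadjusted p under 0.05, with a median of -0.0085. FKBP2, a prolyl isomerase, was at 1.21 ± 0.50 (adjusted p = 0.248) at 0.369 to 1.10 CPM, and the isomerase PDIA5 was at -0.33 (adjusted p = 0.261). Of 20 other tested degradation genes, 0 passed by any of these tools, and 2 were higher and 2 lower at an unadjusted p under 0.05, with a median of -0.02. HM13, the signal peptide peptidase, was at -0.41 (adjusted p = 0.129) and the ubiquitin ligase RNF139 was at 0.49 (adjusted p = 0.17).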

How the data were processed

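Libraries were made from polyadenylated RNA with a TruSeq kit after DNase treatment, per the labels' protocols. The authors deposited raw counts per gene with a gene length in bases, per the file headers. The submitters' processing notes name HISAT2, featureCounts, DESeq2, hg19 and mm10; the strand setting and the annotation are not stated. The column of replicate 1 of Fer knockdown has a shortened name and was matched as the only knockdown sample with that number. Of 39635 rows, 1 without values was left out.

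The main test was edgeR's (4.0.16, R 4.3.3) two-sided quasi-likelihood test after filterByExpr, with TMM factors, no block and 2 residual degrees of freedom. Benjamini-Hochberg adjustment ran over the 15336 tested genes, with a threshold of 0.05. Each SE is the fold change over the root of F. Mean chi-square per gene between replicates was 5.34 for the knockdown-labelled libraries and 28.4 for control, so replicates differed by more than counting noise. Whether replicates share a culture or RNA was not tested. Exon overlaps and chromosomes came from GENCODE release 29 (another build than hg19). Intervals on shares cover counting error only. The fit was tested on simulated counts.

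The members, lists and roles were chosen with earlier results of these data known. Values per library are given for members past the threshold, for up to 4 members per role with the smallest p, and for HSPA5, HSP90B1, XBP1, ATF6, ERN1 and EIF2AK3. Of each other list, genes past the threshold, or else the 2 with the smallest p, are named. Alternative settings used a block on replicate number, 3 other scalings, DESeq2 1.42.0, limma-voom (limma 3.58.1), 2 other filters, each library left out, the mitochondrial genes left out and, added later, a lowess trend (span 0.3) on length removed.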

Additional observations from a re-analysis of the deposited data

How the results depend on the processing

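The count of genes past the threshold over all genes, 99, was 990 with the replicate number as a block, 192 with upper-quartile factors, 443 with library totals alone, 584 in DESeq2, 178 in limma-voom, 993 with no filter and 687 with the length trend removed. Leaving out 1 library gave 56 to 4734. Among the members, the count of higher genes, 2, was 0 to 8 with 1 library left out and the count of lower genes, 0, was 0 to 9. DESeq2, the replicate block, no filter, library totals alone and the length trend added SEC61B to the 2 calls. The deviations of same-numbered libraries correlated at 0.037 and the labels do not pair them, so the block is given here only. Scaling by library totals put the members' median at 0.16 and that of all genes at 0.18 in place of 0.01. The members' median was -0.06 to 0.02 with 1 library left out. With library totals alone XBP1 was at 0.0022 and HSP90B1 at 0.0518, above 0, and both lay below that median of all genes. FER ranged from -0.16 to 0.19 with 1 library left out, and was below 0 without control replicate 1 and, at -0.08, without knockdown-labelled replicate 2. Of the 41 tested members, 23 kept their direction in every alternative that gave a value and 18 turned in at least 1. Library totals alone turned 12, all from below 0 to above it (CALR, CANX, CREB3L2, DNAJB11, EDEM1, EDEM2, ERO1B, HSP90B1, P4HB, PDIA4, PDIA6 and XBP1). ATF6B, DERL3, FKBP2 and ASNS had at most 1.10 CPM, which limits the precision of their values. The cause of their low counts was not tested.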

Other observations

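Some genes of this pathway had counts that a reader may want to look at in the reads. RNF5, which encodes a ubiquitin ligase of the endoplasmic reticulum and lies on chromosome 6, was listed at 0 counts in all 4 libraries. ATF6B, on the same chromosome, had 19 counts in knockdown-labelled replicate 1 and 3 or 4 counts in each other library. PDIA3P1, a pseudogene of PDIA3, had 409 and 496 counts in the knockdown-labelled libraries and 438 and 474 counts in control, at a log2 fold change of -0.24 (adjusted p = 0.44). FAU, which shares 398 bases with SYVN1 on the same strand, was at 0.71 (adjusted p = 0.11), on the other side of 0 from SYVN1. VCP, the ATPase that pulls misfolded proteins from the membrane, had 517 and 509 CPM in the knockdown-labelled libraries and 427 and 391 CPM in control, at 0.32 (adjusted p = 0.18). WFS1, a membrane protein that is known to restrain ATF6, had 101 and 101 CPM in the knockdown-labelled libraries and 132 and 129 CPM in control, at -0.37 (adjusted p = 0.157). These genes were chosen after their values were seen.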
